A study of Mus musculus with 10 samples.

Results

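Mast cells are tissue-resident cells that store proteases and histamine in granules and release them when IgE on their surface meets antigen. Their granules hold carboxypeptidase A3 (Cpa3), the chymases Mcpt4 and Cma1 and the tryptases Tpsb2 and Tpsab1. They need the receptor tyrosine kinase Kit and its ligand for growth and survival, and the transcription factor Gata2 for their gene programme. In solid tumours they usually sit in the stroma, often near vessels and at the tumour edge.

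The genes described here are 10 mast cell genes, picked by name from a count table of 37882 genes. They are the 5 proteases above, Kit, histidine decarboxylase (Hdc), which makes histamine, the alpha chain (Fcer1a) and beta chain (Ms4a2) of the high-affinity IgE receptor, and Gata2. All 10 names matched 1 row each. RNA came from whole tumours of the MCa-M3C breast cancer cell line, grown orthotopically in FVB/N mice. Control mice received PBS (n = 5, replicates 1 to 5). The other mice received TMA-ARB, an angiotensin receptor blocker built to be active in tumours, at 40 mg/kg of valsartan (n = 5, replicates 6 to 10). Both were injected intravenously once daily for 6 days, beginning at a tumour size near 100 mm3, and all tumours came from that 1 line in that 1 strain. The labels do not say that each library came from a separate mouse, so every p-value measures the spread between these libraries.

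Levels are CPM, the counts of a gene scaled to a common library size, with sizes adjusted by TMM and computed here from the deposited counts. The libraries held between 12742953 and 16884621 counts, so that 3 counts, taken as the limit that a count of 0 allows, stood for 0.168 to 0.308 CPM. This limit covers counting error only. The share of counts from the 37 mitochondrially encoded (mt-) genes was 4.19% ± 2.21 in the controls and 10.5% ± 9.12 under TMA-ARB (SD over 5 libraries in each group). That difference had a two-sided exact permutation p of 0.143, and the smallest p that 5 against 5 libraries can give is 0.00794. The share ran from 2.07% to 6.63% in the controls and from 2.22% to 24.97% under TMA-ARB, and its relation to each mast cell gene is given below.

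The mast cell genes were present at low levels, and the proteases differed widely between tumours within each group. The spread between tumours was not tested against the difference between treatments. The 5 proteases summed to 75.9 CPM in control replicate 1 and 66.3 CPM in TMA-ARB replicate 6, and to between 4.14 and 30.9 CPM in the other 8 tumours. No gene of the list passed the test between TMA-ARB and control. The edgeR quasi-likelihood test with Benjamini-Hochberg adjustment over 14063 genes called 0 genes (0%), and 457 genes (3.25%) had an unadjusted p under 0.05. Of the 8 list genes that passed the filter on low counts, none passed and none had an unadjusted p under 0.05; DESeq2 called 2 genes (0.00837%), neither of them in the list. Fcer1a and Ms4a2 missed the filter. In bulk tumour RNA, fewer mast cells and less RNA per mast cell cannot be told apart.

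**Figure D1:**
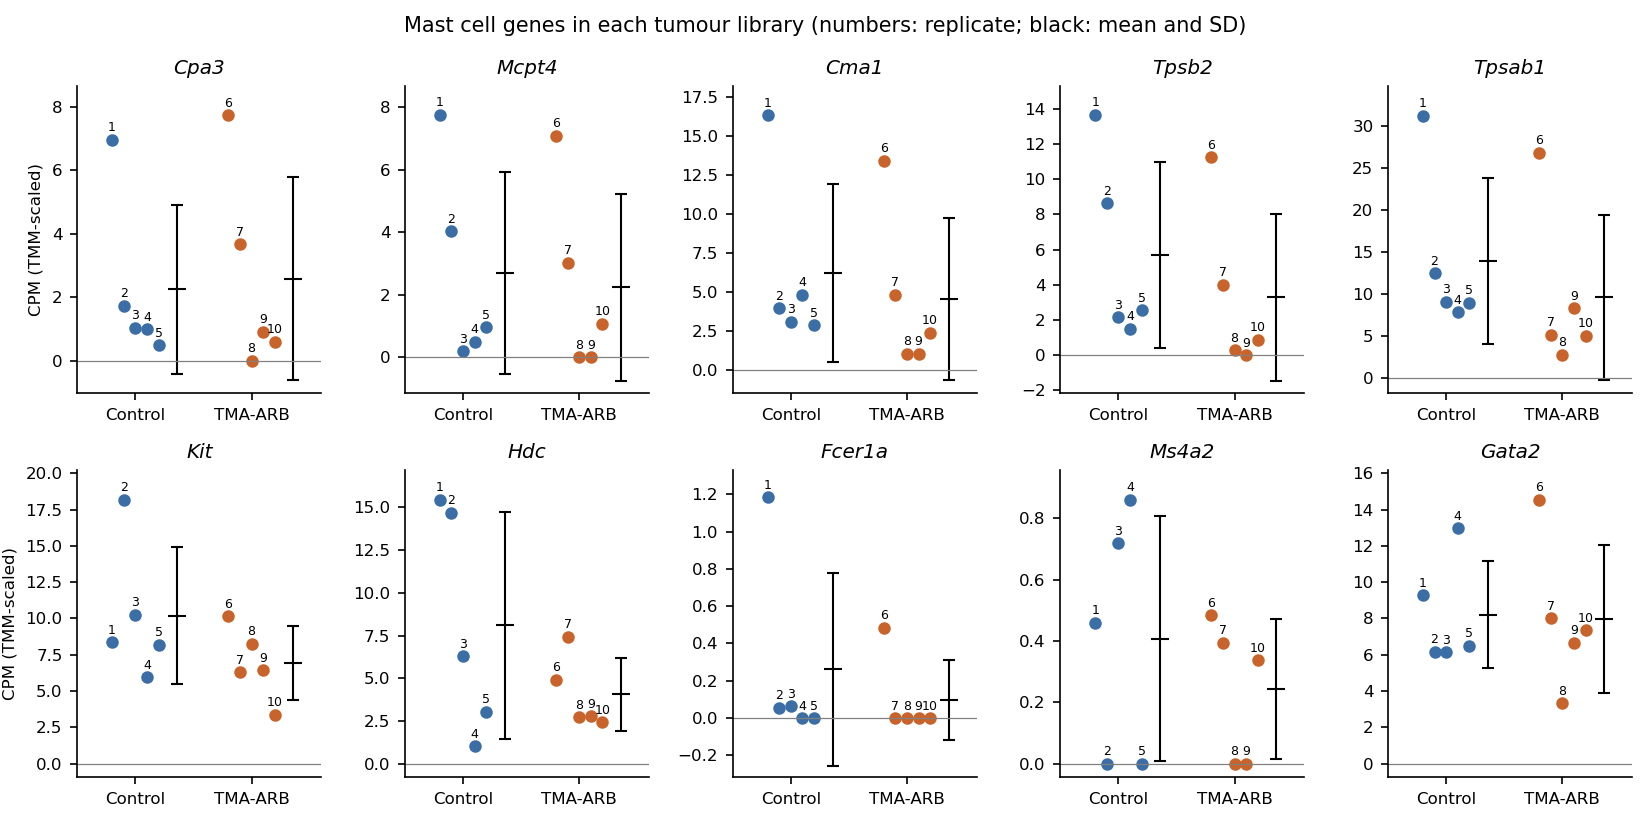
CPM of the 10 mast cell genes (vertical axes, each with its own scale) in the 5 control and 5 TMA-ARB libraries; each point is 1 library with its replicate number, and the black line and bars are the group mean and SD. Control replicate 1 was the highest library for 6 of the genes and TMA-ARB replicate 6 for 2, and the groups overlapped for all 10; SD bars that reach below 0 are drawn whole.

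Cpa3 encodes the carboxypeptidase that mast cells store bound to heparin. It lies on chromosome 3 at 20215620-20242181, on the minus strand (GRCm38, the assembly also called mm10; coordinates from GENCODE release 21, as for the other genes below). Its level in control replicates 1 to 5 was 6.97, 1.74, 1.05, 1.00 and 0.485 CPM. In TMA-ARB replicates 6 to 10 it was 7.75, 3.68, 0, 0.923 and 0.608 CPM. The highest library was a treated one and the next highest a control, so the groups overlapped throughout. TMA-ARB replicate 8 held 0 Cpa3 counts, which allows up to 0.222 CPM. The group means were 2.25 ± 2.68 CPM in controls and 2.59 ± 3.21 CPM with treatment (SD, n = 5), and the log2 fold change under TMA-ARB was 0.22 ± 1.02 (SE; edgeR adjusted p = 0.997). This sign hung on single libraries: the log2 fold change was -0.77 when TMA-ARB replicate 6 was left out, 1.28 when control replicate 1 was, and -0.04 when control replicate 5 was.

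The chymases Mcpt4 and Cma1 are granule proteases of connective tissue mast cells, and Mcpt4 is regarded as the closest mouse counterpart in function of human chymase. Both lie on the minus strand of chromosome 14, Cma1 at 55941451-55944675 and Mcpt4 at 56059629-56062313. Mcpt4 stood at 7.76, 4.04, 0.196, 0.502 and 0.971 CPM in the controls and at 7.09, 3.03, 0, 0 and 1.08 CPM under TMA-ARB, in the order of the replicates. The first pair of libraries in each group reached 3 CPM and no other library did. Cma1 was detected in every tumour, at 16.3, 3.93, 3.07, 4.81 and 2.85 CPM in the controls and at 13.4, 4.80, 1.03, 1.03 and 2.36 CPM under TMA-ARB. The first library of each group stood far above the rest, and 3 of the 5 treated libraries lay below every control. The edgeR log2 fold change was -0.25 ± 1.24 for Mcpt4 and -0.44 ± 0.73 for Cma1 (SE; adjusted p = 0.997 for both). Without control replicate 1 these became 0.65 and 0.31. Part of each sequence is shared with a related gene, which a count estimate may split: 12.2% of the 31-base words of Mcpt4 also occur in other genes, mostly Cma2, and 10.6% of those of Cma1 occur in Gm48934.

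Tpsb2 and Tpsab1 encode the tryptases, trypsin-like proteases that assemble as tetramers on heparin. They are neighbours on chromosome 17, Tpsab1 at 25343245-25345562 on the minus strand and Tpsb2 at 25366305-25369098 on the plus strand. Tpsab1 had the most counts of the proteases, at 31.2, 12.5, 9.09, 7.89 and 8.98 CPM in the controls and at 26.8, 5.197, 2.81, 8.30 and 5.07 CPM under TMA-ARB. Tpsb2 stood at 13.7, 8.64, 2.16, 1.51 and 2.55 CPM in the controls and at 11.3, 4.01, 0.295, 0 and 0.878 CPM under TMA-ARB. The 3 treated libraries with the least Tpsb2 lay below every control, while the other treated libraries lay within the control range. The log2 fold change was -0.53 ± 0.59 for Tpsab1 and -0.78 ± 1.08 for Tpsb2 (SE; edgeR adjusted p = 0.997 for both). Without TMA-ARB replicate 6 they were -1.38 and -2.10, and without control replicate 1 they were 0.0046 and -0.16, again with no call. Reads can be told apart between the pair, since only 9 of their 31-base words are common to both, or 0.557% of those of Tpsb2.

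The mix of the tryptases also differed between tumours. Tpsb2 made up 40.9% of the tryptase counts in control replicate 2 and 43.6% in TMA-ARB replicate 7. In control replicate 1 and TMA-ARB replicate 6, which had the most protease counts, it made up 30.5% and 29.6%. It was 16.03% to 22.1% in control replicates 3 to 5. In TMA-ARB replicate 9, 0 of 81 tryptase counts came from Tpsb2, for which the exact 95% binomial interval reaches 4.45%. TMA-ARB replicate 8 stood at 9.52% of 42 counts (2.66% to 22.6%) and replicate 10 at 14.8% of 88 counts (8.11% to 23.9%). These intervals cover counting error only, and the lowest shares rested on the fewest counts. The libraries with an mt- share above 10% were the 3 with the lowest Tpsb2 share.

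**Figure D2:**
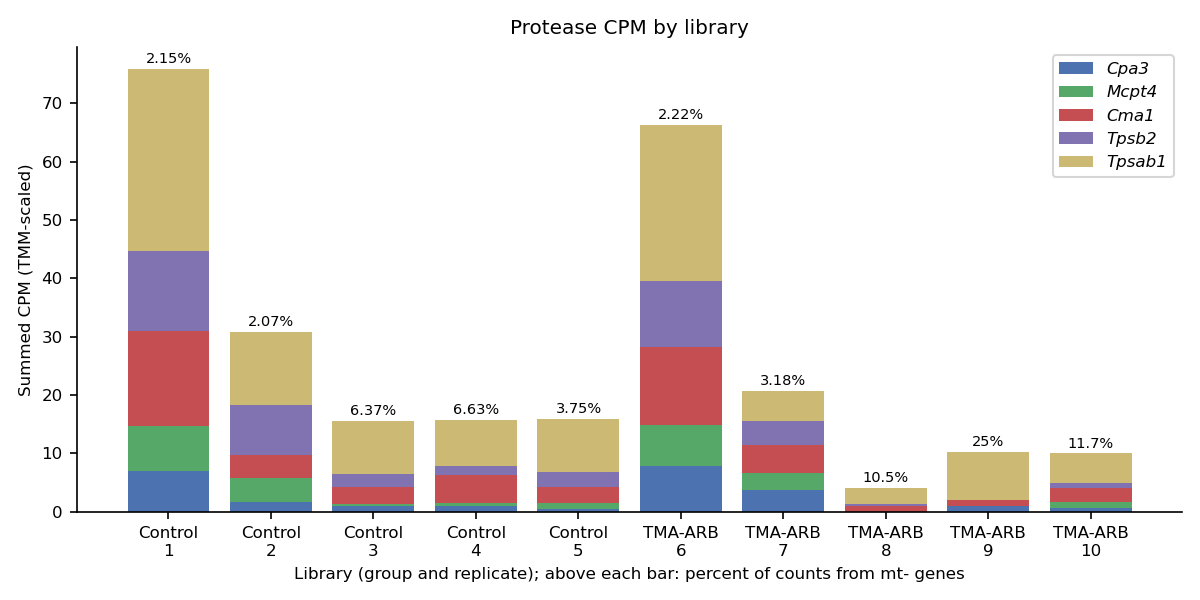
Summed CPM of Cpa3, Mcpt4, Cma1, Tpsb2 and Tpsab1 (vertical axis) in each of the 10 libraries, with the percent of counts from mt- genes above each bar. Control replicate 1 and TMA-ARB replicate 6 reach 75.9 and 66.3 CPM at shares of 2.15% and 2.22%, and the 3 treated libraries above a 10% share lie between 4.14 and 10.3 CPM.

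The promoters were searched for GATA words, since Gata2 is itself in the list. GATA factors bind short words built around GATA. The word AGATAA, the word AGATAG, the word TGATAA and the word TGATAG were searched on both strands of the RefSeq promoters of GRCm38.p6, from 250 bases before to 50 after the start site. RefSeq promoters were matched for 8 of the 10 genes; Tpsb2 and Tpsab1 had no entry. Such a word lay in the promoters of 6 of the 8, namely Cpa3, Mcpt4, Cma1, Hdc, Fcer1a and Ms4a2, and in 29.8% of all 32851 promoters of that length. Kit and Gata2 had none in these windows. The 250 bases before the start site are shown for the 3 proteases and for Ms4a2, the only gene of the list with 3 such words, 5′ to 3′ on the gene's strand, with the words in capitals (a word read on the other strand appears as its reverse complement). They are reference sequence, not FVB/N, and a match is a description and not a bound site.
Cpa3, minus strand of chr3:20242182-20242431: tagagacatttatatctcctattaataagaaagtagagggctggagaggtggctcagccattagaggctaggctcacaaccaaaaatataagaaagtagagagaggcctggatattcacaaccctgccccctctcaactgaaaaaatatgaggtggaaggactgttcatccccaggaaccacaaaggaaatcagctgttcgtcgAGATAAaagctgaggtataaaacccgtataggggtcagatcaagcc
Mcpt4, minus strand of chr14:56062311-56062560: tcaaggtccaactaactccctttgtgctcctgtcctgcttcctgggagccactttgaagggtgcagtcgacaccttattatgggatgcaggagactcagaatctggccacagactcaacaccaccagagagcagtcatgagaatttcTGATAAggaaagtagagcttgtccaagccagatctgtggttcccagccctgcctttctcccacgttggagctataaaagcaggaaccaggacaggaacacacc
Cma1, minus strand of chr14:55944676-55944925: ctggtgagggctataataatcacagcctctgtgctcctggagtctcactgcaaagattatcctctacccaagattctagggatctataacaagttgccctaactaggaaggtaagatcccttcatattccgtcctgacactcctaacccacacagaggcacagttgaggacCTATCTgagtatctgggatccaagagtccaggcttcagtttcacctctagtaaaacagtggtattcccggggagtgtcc
Ms4a2, minus strand of chr19:11623720-11623969: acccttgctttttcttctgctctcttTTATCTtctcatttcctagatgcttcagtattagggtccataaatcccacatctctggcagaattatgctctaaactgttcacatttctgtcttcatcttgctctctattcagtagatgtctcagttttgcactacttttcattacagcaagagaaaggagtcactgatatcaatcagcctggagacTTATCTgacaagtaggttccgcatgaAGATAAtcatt

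Counted from the start site, the word lies at -46 to -41 in Cpa3, at -103 to -98 in Mcpt4 and at -79 to -74 in Cma1. In Ms4a2 the words begin at -224, -37 and -11. In Hdc the word begins at -221 and in Fcer1a at -92. The E-box word CACGTG and its variant CATGTG, which the mast cell factor Mitf can bind, were found in 20.4% of all promoters and, among these genes, in Fcer1a alone.

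The receptor for IgE was at the edge of detection. Fcer1a, the chain that binds IgE, lies on chromosome 1 at 173221284-173227214. It had 18 counts in control replicate 1 and 8 in TMA-ARB replicate 6, or 1.18 and 0.485 CPM. It had 1 count each in control replicates 2 and 3 and 0 in the other 6 libraries. Nearly all Fcer1a counts thus came from the same tumours that led for the proteases. Ms4a2, the signal-amplifying beta chain, lies on chromosome 19 at 11615523-11623719. It had 7, 0, 11, 12 and 0 counts in the controls and 8, 6, 0, 0 and 5 counts under TMA-ARB, so its highest library was control replicate 4 and not the one that led for Fcer1a. Of its 31-base words, 3.96% also occur in other genes, mostly Ms4a4b. The difference in mean CPM had an exact permutation p of 0.563 for Fcer1a and 0.492 for Ms4a2 (two-sided, over all arrangements of the libraries).

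Kit, the receptor for stem cell factor, is also made by luminal progenitors of the breast, melanocytes and other cells. It lies on chromosome 5 at 75574916-75656722. Its level was 8.35, 18.2, 10.3, 5.95 and 8.19 CPM in the controls and 10.2, 6.32, 8.27, 6.46 and 3.38 CPM under TMA-ARB. Control replicate 2 was highest, and control replicate 1, which led for 6 of the other genes, was near the middle. The log2 fold change was -0.56 ± 0.35 (SE; edgeR adjusted p = 0.997), negative in all 20 alternative fits, between -0.83 and -0.24, and called in none.

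Hdc, which makes histamine in mast cells and in other myeloid cells, lies on chromosome 2 at 126593667-126619299. It reached 15.4 and 14.7 CPM in control replicates 1 and 2 and 6.28, 1.00 and 3.03 CPM in the other controls. Under TMA-ARB it was 4.91, 7.43, 2.73, 2.77 and 2.43 CPM. TMA-ARB replicate 6 was thus not a high library for Hdc, unlike for the proteases. The log2 fold change was -0.99 ± 0.61 (SE; edgeR adjusted p = 0.997), the largest fold change of the list in size. It was negative in all 20 alternative fits, between -1.32 and -0.23, and called in none.

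Gata2, the transcription factor, is also expressed in endothelium and in blood progenitors. It lies on chromosome 6 at 88193891-88207032. It stood at 9.27, 6.17, 6.15, 13.0 and 6.49 CPM in the controls and at 14.5, 8.03, 3.32, 6.66 and 7.36 CPM under TMA-ARB. TMA-ARB replicate 6 was highest, followed by control replicate 4. Over all 10 libraries Gata2 had the smallest range of the tested genes, 4.37-fold from lowest to highest. Under TMA-ARB alone its SD in log2 CPM was 0.74, above that of Kit (0.58) and Hdc (0.67). Its log2 fold change was -0.04 ± 0.37 (SE; edgeR adjusted p = 0.997).

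**Figure D3:**
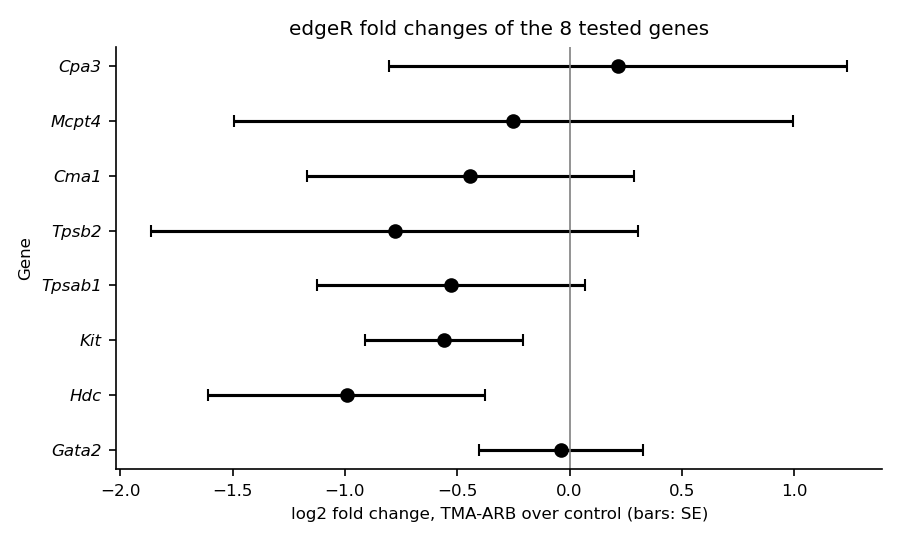
Log2 fold change, TMA-ARB over control, of the 8 genes that passed the filter (horizontal axis; points are edgeR estimates, bars are 1 SE). Estimates run from -0.99 for Hdc to 0.22 for Cpa3, and none passed the test.

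Across the list, 7 of the 8 fold changes were negative and 1 positive, against 47.2% negative over all genes tested. These genes were read in the same libraries, so their signs are not independent of one another, and the shared sign was not tested. The median of the 8 fold changes was -0.48 on the log2 scale, against 0.021 over all genes. This median was set by few libraries. Leaving out control replicate 1 gave 0.0076, leaving out TMA-ARB replicate 6 gave -1.21, and leaving out both gave -0.68. Among libraries with an mt- share below 5% it was 0.079, among those above 5% it was -0.88 over 8 genes that included Ms4a2 in place of Mcpt4, and with the log2 mt- share as a covariate it was -0.010. No gene of the list had groups that did not overlap in CPM, while 74 of all genes tested (0.526%) did.

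To rank the genes against one another, levels were divided by the length of the exons. The median over the 10 libraries was 4.13 CPM per kb for Tpsab1, 3.21 for Cma1, 1.48 for Tpsb2 and 1.30 for Gata2. It was 0.926 for Mcpt4, 0.924 for Kit, 0.676 for Cpa3 and 0.621 for Hdc. A tryptase and a chymase thus stood at the top of the order. The order and its neighbouring pairs were taken from the same 10 libraries in which they were then compared. The p-values of these pairs thus do not test the order independently. Of the 7 neighbouring pairs, Cma1 and Tpsb2 stood furthest apart for their spread. The mean log2 difference in level per length was 1.32 ± 1.14 (SD, n = 10 libraries), with Cma1 higher in 9 of 10 and an exact sign permutation p of 0.00391 (two-sided; 0.0273 adjusted over the 7 pairs). For the other pairs the exact p was 0.182 or above.

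Relations between the genes were read across tumours. Over the 10 libraries, the 10 pairs of proteases had Pearson r between 0.69 and 0.92 in log2 CPM, with a median of 0.82. The closest pair was Mcpt4 and Tpsb2, a chymase and a tryptase on different chromosomes (r = 0.92, rho = 0.91; permutation p = 0.00028 and 0.00068). Of all 28 pairs of tested genes, this was the 1 pair whose r passed when adjusted over all genes compared with either gene (adjusted p = 0.0291), and no pair passed by rank (adjusted p = 0.0559 for this pair). Of all genes, 3.33% passed as positive partners of Mcpt4 and 6.54% as positive partners of Tpsb2. Without the 2 libraries farthest from the median of Mcpt4, TMA-ARB replicates 8 and 9, r was 0.85. With each group's mean removed it was 0.94 (p = 0.000556 over 14400 exact arrangements within groups), which did not pass (adjusted p = 0.0758), and no other pair passed in that form. Among the protease pairs r was lowest for Mcpt4 with Tpsab1 (0.69, rho = 0.63). For Cma1 with Tpsab1, r went from 0.82 to 0.44 without control replicate 1 and TMA-ARB replicate 6, the 2 libraries farthest from the median of Cma1. Other libraries were left out where the first gene of a pair differed, so these changes in r are not ranked across pairs.

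Outside the proteases, relations were read for Gata2, Kit and Hdc. Gata2 had r between 0.49 and 0.76 with the proteases, and Kit between 0.21 and 0.48. Hdc had r between 0.48 and 0.66 with the proteases and 0.61 with Kit. Kit and Gata2 had r = -0.13, and Hdc and Gata2 r = -0.07. None of these pairs passed the adjustment, and the differences between these r values were not tested.

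**Figure D4:**
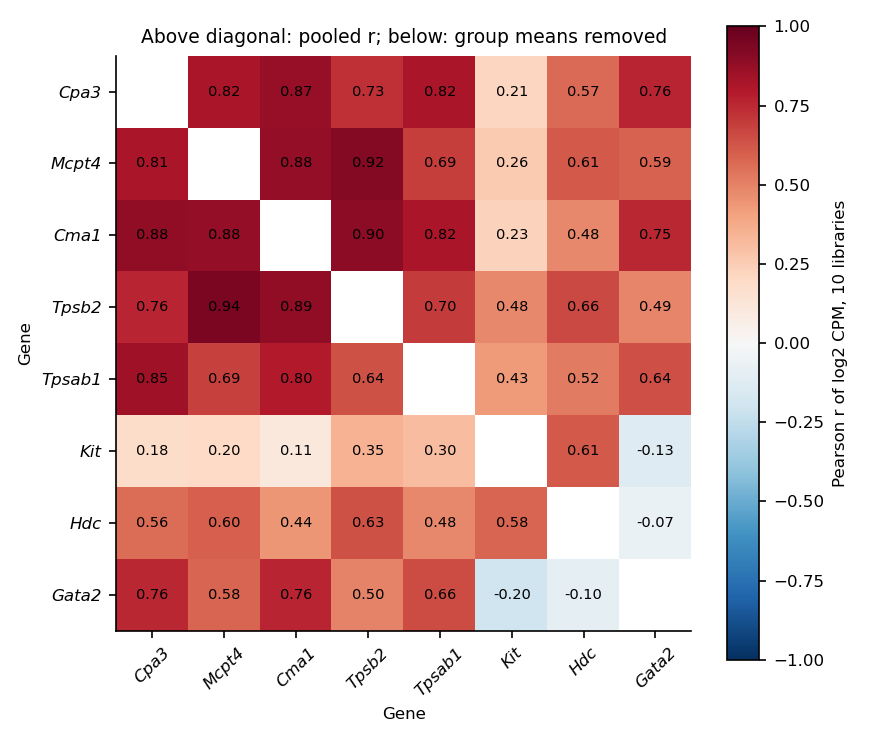
Pearson r of log2 CPM over the 10 libraries for each pair of the 8 tested genes (colour scale from -1 to 1), pooled above the diagonal and with group means removed below it. The block of the 5 proteases at the upper left holds r from 0.69 to 0.92 above the diagonal, and Kit with the proteases holds 0.21 to 0.48.

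All 5 proteases had a negative r with the log2 mt- share. It passed for Tpsb2, Mcpt4 and Cma1 and did not pass for Cpa3 and Tpsab1. The difference between these genes was not tested, and rho was -0.76 for Cma1 and -0.72 for both Cpa3 and Tpsab1. The relation was closest for Tpsb2: its r with the log2 mt- share was -0.97 and its rho -0.95 over the 10 libraries. The permutation p of r was 1e-05, the smallest that 100000 permutations can give, and 0.00299 when adjusted over all 14063 genes; for rho the adjusted p was 0.0184. Only 0.0853% of all genes had an r as low. Tpsb2 ran from 2.55 to 13.7 CPM in the 5 libraries below a 5% share and from 0 to 2.16 CPM in the 5 above it. These ranges restate the relation given by r, and how many of all genes were split in this way was not counted. With group means removed, r was -0.97 (adjusted p = 0.0296). The adjusted p of r stayed at or below 0.0384 with any single library left out. Without the 2 libraries farthest from the median share, TMA-ARB replicates 9 and 10, r was -0.96 and its adjusted p 0.0882 over 8 libraries. With the mt- genes left out of the library sizes, r was again -0.97.

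Mcpt4 and Cma1 also passed by Pearson r. Mcpt4 had r = -0.88 (rho = -0.82; adjusted p = 0.0174 for r and 0.0527 for rho) and Cma1 r = -0.82 (rho = -0.76; adjusted p = 0.0318 for r and 0.0882 for rho). These calls were less firm than that of Tpsb2. With group means removed neither passed, with r of -0.90 and -0.80 (adjusted p = 0.0516 and 0.108). Mcpt4 no longer passed without TMA-ARB replicate 9 (r = -0.84), and Cma1 no longer passed when control replicate 1 or TMA-ARB replicate 6, 8 or 9 was left out (r between -0.81 and -0.76). Without TMA-ARB replicates 9 and 10 their r was -0.97 and -0.77, and neither passed.

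The other genes had negative r that did not pass. It was -0.66 for Cpa3 (rho = -0.72; permutation p = 0.0399, adjusted 0.133), -0.63 for Tpsab1 (rho = -0.72; adjusted p = 0.161) and -0.67 for Hdc (rho = -0.82; adjusted p = 0.128). Without TMA-ARB replicates 9 and 10 these were -0.83, -0.78 and -0.71. Kit had r = -0.58 (rho = -0.64; adjusted p = 0.208) and Gata2 r = -0.39 (rho = -0.22; adjusted p = 0.450), the weakest of the list. In all, 3 of the 8 genes passed as negative, while 7.66% of all genes did; by rank 4.1% of all genes passed as negative and with group means removed 4.05%, and in both of these Tpsb2 was the only gene of the list. All 8 had a negative r, against 51.2% of all genes and a median r over all genes of -0.025. The 8 genes were read in the same libraries, so these counts do not rest on independent genes. Mcpt4, Tpsb2 and Cma1, the 3 that passed, had r of 0.88 to 0.92 with one another. The shared sign was not tested. The 3 libraries above a 10% share were all from treated tumours, so treatment and a share above 10% cannot be told apart. What the share stands for was not tested.

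**Figure D5:**
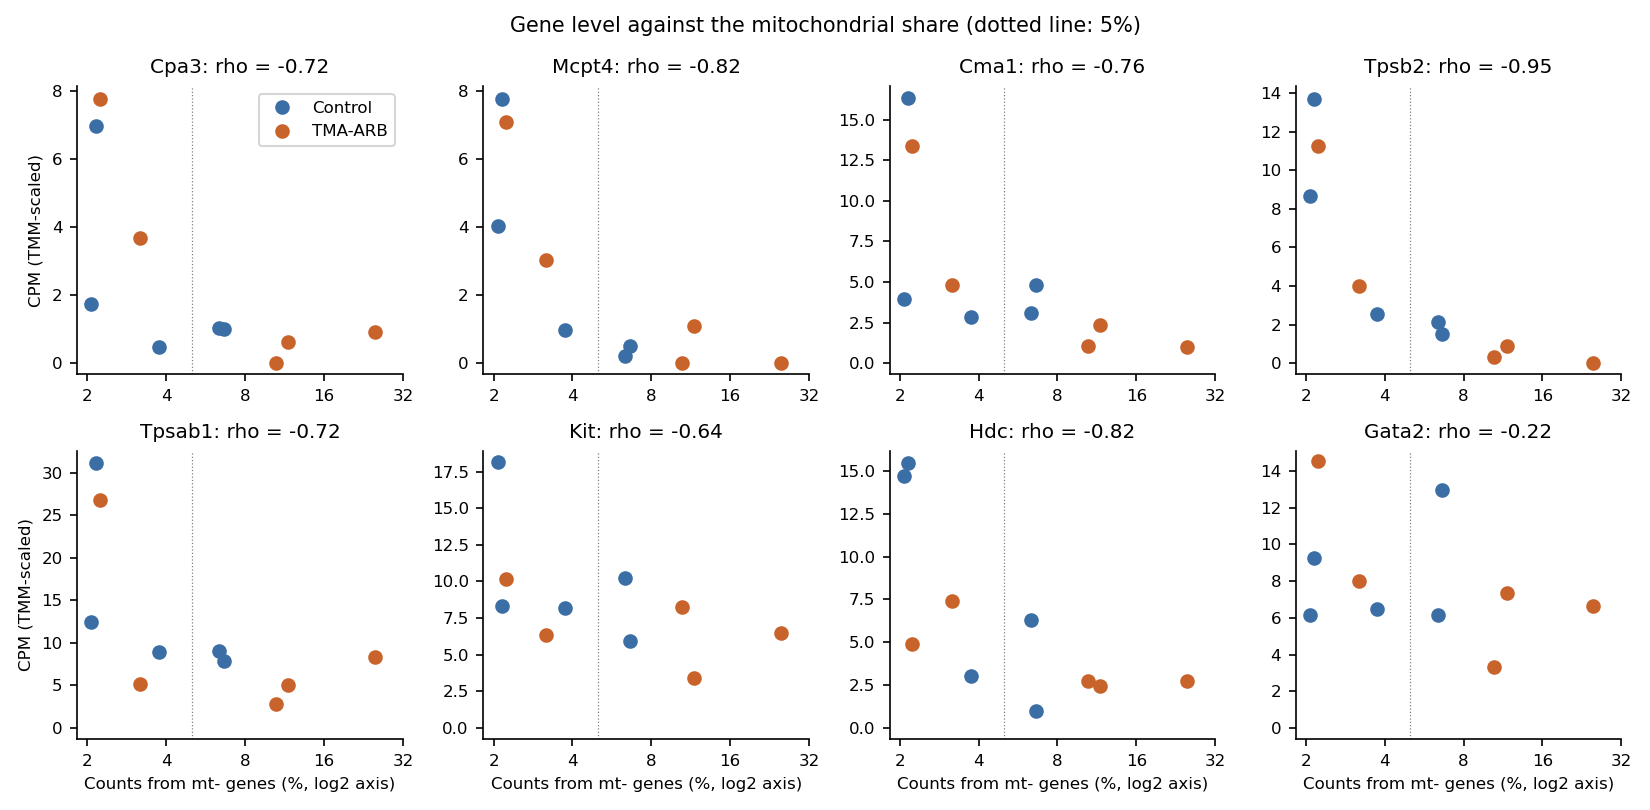
CPM of the 8 tested genes (vertical axes) against the percent of counts from mt- genes (horizontal log2 axis) in the 10 libraries, coloured by group, with a dotted line at 5%. Tpsb2 runs from 13.7 CPM at a share of 2.15% to 0 CPM at 24.97%, and Gata2 shows the least order.

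The genes that followed Cpa3 most closely came from outside these lists. Over the 10 libraries, the 8 with the highest Pearson r in log2 CPM were Ddx56 (0.974), Psmd1 (0.971), Tango6 (0.961), Kcnn4 (0.960), Metap1 (0.953), Agpat6 (0.953), Tpm3 (0.951) and Mlf2 (0.948). Ddx56 is an RNA helicase, Psmd1 a proteasome subunit, Kcnn4 a calcium-activated potassium channel and Tpm3 a tropomyosin. Among 14062 genes ranked in this way, Cma1 came at place 136, Tpsab1 at 356, Mcpt4 at 358, Gata2 at 644 and Tpsb2 at 838. Hdc came at 2132 and Kit at 5146. An r of 0.75 was the 95th percentile of all genes, and 4 of these 7 genes lay above it. This ranking was given no test.

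Further mast cell genes were read from lists by role. Of 10 granule genes, 5 could be tested and 0 were called (median log2 fold change -0.40). The largest of them in level was Srgn, the core protein that binds granule proteases and is made by many blood cells, at 203 ± 58.8 CPM in the controls and 154 ± 57.6 under TMA-ARB. Mcpt2, a chymase of mucosal mast cells, stood at 44.6, 8.08, 0.981, 4.66 and 2.12 CPM in the controls and at 18.7, 9.61, 0, 0.820 and 0.946 CPM under TMA-ARB. It was highest in the same libraries as the proteases above, and its r of 0.94 with Cpa3 put it at place 16 of the 14062 genes. Mcpt1, its mucosal partner, had 73 counts in control replicate 1 and 10 or fewer in any other library. Ctsg, cathepsin G of neutrophils and mast cells, had 23.7 and 26.8 CPM in control replicates 1 and 2, the same 2 tumours that led for Hdc, and 2.36 CPM in TMA-ARB replicate 6.

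The signalling genes below the IgE receptor are shared with other immune cells. Of 14 such genes 13 could be tested, and all 13 fold changes were negative, against 47.2% over all genes tested. Their median was -0.19, from -0.67 for Plcg2 to -0.046 for Fyn, and 0 were called. They were read in the same libraries, so their signs are not independent of one another, and their shared sign was not tested. Only Plcg2, a phospholipase also used by B cells, had an unadjusted p under 0.05 (log2 fold change -0.67 ± 0.28, edgeR adjusted p = 0.997). Fcer1g, the signalling chain of the receptor and of other Fc receptors, stood at 74.6 ± 9.63 CPM in the controls and 71.8 ± 14.1 under TMA-ARB. It was detected in all 10 libraries, where Fcer1a was detected in 4.

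Of 13 growth factors, receptors and transcription factors, 8 could be tested and 0 were called (median -0.085). Kitl, the ligand of Kit, stood at 92.7 ± 22.6 CPM in the controls and 111 ± 26.4 under TMA-ARB (± is the SD of 5 libraries, here and for the genes above). Il1rl1, the IL-33 receptor used as a mast cell marker, stood at 3367 ± 562 and 3628 ± 1133 CPM, with r = -0.21 with Cpa3. Of 12 histamine and lipid mediator genes, 7 could be tested and 0 were called (median -0.27), and of 6 other surface markers, 3 could be tested and 0 were called (median -0.023).

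Markers of cells that share some of these genes were read beside them. The basophil protease Mcpt8 was between 2.00 and 5.59 CPM in the controls and between 1.21 and 3.91 under TMA-ARB, lowest in TMA-ARB replicate 6, and Prss34, another basophil protease, had 0 counts in every library. Of 5 eosinophil markers the sum was at most 0.933 CPM, with Epx at 0 in every library; Siglecf was not analysed here. The sum of 6 neutrophil markers was highest in control replicate 1 (350 CPM) and lowest in TMA-ARB replicate 6 (76.9 CPM), the libraries that both led for the proteases. The sum of 5 skeletal muscle markers was highest in TMA-ARB replicate 6 (279 CPM, against 78.8 to 195 CPM in the controls), where Acta1 alone gave 277.5 CPM. The other 4 muscle markers were highest in a control, with Ckm at most 25.05 CPM in the controls and 1.23 CPM under TMA-ARB, Myh4 7.39 and 0.0606, Tnnt3 15.0 and 2.91, and Mylpf 15.9 and 1.63. The sum of 10 endothelial markers was 284 to 461 CPM in the controls and 242 to 336 CPM under TMA-ARB, with control replicate 1 at 305 and TMA-ARB replicate 6 at 331. Of the 5 melanocyte markers, Pmel had 55 counts over 9 libraries and Tyr 47 counts over 8, while Dct, Mlana and Tyrp1 had 0 counts in every library. The sum of 6 adipocyte markers was 40.2 to 59.2 CPM in the controls and 34.4 to 57.8 CPM under TMA-ARB. Most of it was Fabp4 (mean 47.5 CPM), which endothelial cells and macrophages also make; Plin1 was detected in all 10 libraries at a mean of 0.567 CPM, and Adipoq had 9 counts in 2 libraries. The sum of 5 connective tissue markers was 112 to 131 CPM in the controls and 104 to 163 CPM under TMA-ARB. Nearly all of this sum was Cd34 (mean 123 CPM over the 10 libraries), and Pi16, the next highest, averaged 2.25 CPM. The sum of 4 peripheral nerve markers was 10.2 to 14.7 CPM in the controls and 6.78 to 20.7 CPM under TMA-ARB, and that of 3 luminal progenitor markers was 97.9 to 234 and 83.2 to 123 CPM. Nearly all of the latter was Cd14 (mean 141 CPM in the controls and 102 CPM under TMA-ARB), while Elf5 averaged 0.599 and 0.776 CPM and Aldh1a3 1.84 and 2.84 CPM. The part of these cells in the mast cell gene levels was not tested.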

How the data were processed

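The authors deposited estimated counts per Ensembl gene for 10 tumour libraries; poly-A RNA was made into strand-marking libraries, per the labels' protocols. Salmon and mm10 are named in the submitters' processing notes; version and annotation are not given in the sources used here. Every deposited count was a whole number. The rows were chosen by gene name. The genes and lists were chosen with earlier results of these data known.

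Counts were fitted with edgeR 4.0.16 (R 4.3.3; quasi-likelihood, TMM, default filter, robust, Benjamini-Hochberg at 0.05), tested on simulated data. The SE of an edgeR fold change was derived here, as the size of the log2 fold change over the square root of the test's F value. Log2 CPM used a prior count of 2. Relations used 100000 permutations, or 14400 exact arrangements within groups, adjusted over all genes tested. The design had named an adjustment over the genes of the list, which was not used because they had been chosen with results known. Alternatives were DESeq2 1.42.0, voom with sample weights (limma 3.58.1), other scaling and filters, the mt- share as covariate, both sides of a 5% share, and leaving out libraries. Of the alternatives, 1 was chosen after seeing the data: leaving out control replicate 1 and TMA-ARB replicate 6, the libraries with the most Cpa3 counts. Named genes were the 10 genes, the lists by role (up to 4 genes each by mean level) and the 8 closest to Cpa3. Mcpt1, Plcg2 and the markers of other cells that are named singly were chosen outside that rule, after their values were seen. Promoters are from RefSeq (GRCm38.p6).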

Additional observations from a re-analysis of the deposited data

Results flagged for a closer look

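Within a group of 5 libraries, a library was marked when its gap to the next one exceeded 0.71 of the group's whole range. Of 22 groups checked, 6 held such a library. The limit marks about 1 in 20 groups of normally distributed values. These values were CPM without a log, some of them 0, so that rate cannot be set against the 6 groups. For Fcer1a under TMA-ARB the next library was at 0, and the gap was the whole range. Control replicate 1 stood apart as the highest control for Cpa3 (6.97 CPM, next 1.74), Cma1 (16.3 CPM, next 4.81), Tpsab1 (31.2 CPM, next 12.5) and Fcer1a (1.18 CPM, next 0.0654). TMA-ARB replicate 6 stood apart as the highest treated library for Tpsab1 (26.8 CPM, next 8.30) and Fcer1a (0.485 CPM, next 0). Both libraries had a low mt- share, of 2.15% and 2.22%. Control replicate 2, with a share of 2.07%, was not marked for any of the genes. The genes are read in the same libraries, so these marks are not independent of one another.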

How the results depend on the processing

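No mast cell gene was called under any alternative run. DESeq2 called 2 of all genes, the libraries above a 5% mt- share alone gave 4, and every other fit gave 0. The SE of the list's fold changes was 0.35 to 1.24, and 21 alternative values changed sign. The log2 fold change of Cpa3 was -0.94 by voom and -1.03 above a 5% share. With the mt- share as covariate, that of Mcpt4 was 1.10, of Cma1 0.035 and of Gata2 0.083; among libraries below a 5% share they were 0.26, 0.26 and 0.64. Leaving out 1 library at a time gave -0.77 to 1.28 for Cpa3, -1.36 to 0.65 for Mcpt4, -1.41 to 0.31 for Cma1, -1.38 to 0.0046 for Tpsab1 and -0.37 to 0.20 for Gata2, and a mean difference of -0.26 to 0.067 CPM for Fcer1a. The number of genes whose relation to the mt- share passed was 1 to 3 with 1 library left out (1 without TMA-ARB replicate 9), 0 without the 2 farthest libraries and 1 (Tpsb2) without control replicate 1 and TMA-ARB replicate 6. Fewer libraries were compared there; the cause of the other changes was not tested. No paired analysis was possible because the groups share no replicate numbers. Depth limits Fcer1a (28 counts in all) and Ms4a2 (49), and 0 counts of Cpa3, Mcpt4 or Tpsb2 in single libraries.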
